A study of Mus musculus with 16 samples.

Results

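Thy1 (ENSMUSG00000032011.5) was examined as the resident gene whose regulatory sequence drives the transgenes of 5xFAD mice. It was taken by its symbol, which held 1 of the 55385 genes of the count table and of the RPKM table. Polyadenylated RNA of the hippocampus had been sequenced in 16 libraries from mice aged 9 months, 4 libraries from each of 4 genotypes, each with 2 females and 2 males. Wild-type C57BL/6J mice (WT) carried neither alteration. Dp16 mice carried an extra copy of the segment of mouse chromosome 16 that matches much of human chromosome 21. 5xFAD mice carried human transgenes with familial Alzheimer mutations, a mutant APP among them, and 5xFAD-Dp16 mice carried both the transgenes and the duplication. The 8 libraries of the last 2 genotypes are called carriers below and the other 8 non-carriers. No treatment is given in the labels, nor whether carriers and non-carriers were littermates. The libraries are named by group and by the number in their title.

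Thy1 encodes a small glycoprotein of the immunoglobulin superfamily that is held in the outer membrane leaflet by a glycosylphosphatidylinositol (GPI) anchor. It is abundant on the axons and dendrites of mature projection neurons, and is also known from T cells and some fibroblasts. On neurons it meets integrins and syndecan-4 on astrocytes and signals through Src-family kinases. The mouse Thy1 expression cassette is widely used to restrict transgenes to postnatal neurons. In the 5xFAD line the human cDNAs sit in such a cassette, which keeps non-coding parts of Thy1 in the transcribed RNA. Reads from those parts and reads from the resident gene cannot be told apart in a count per gene.

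In GRCm38, Thy1 lies on the plus strand of chromosome 9, from 44043384 to 44048579. GENCODE M21 lists 6 transcripts for it. The reference isoform has 4 exons and 1735 bases, of which 486 are coding. Its exon 1, from 44043384 to 44043476, is untranslated, and coding begins in exon 2. The 3′ UTR takes 1131 bases of exon 4, and 72.0% of the isoform is untranslated. The deposited RPKM values imply a length of 1878 bases for Thy1 in every library, against 2995 bases for the union of its annotated exons. No annotated gene overlapped Thy1. Coverage along the gene was not analysed here, so the share of reads from each exon is unknown.

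The library totals ran from 16922937 to 25308693 counts, and 17132 genes passed the filter on low counts. Thy1 itself drew between 12840 and 69657 counts per library, so counting error was small beside the differences between libraries. All 10 listed dentate granule cell genes and all 13 listed CA1 and CA3 pyramidal cell genes passed the filter, as did the 12 listed thalamus genes. The thalamus genes split the libraries: 6 libraries stood more than 0.7 log2 units above the median of their mean log2 level. They were WT 4, Dp16 14, 5xFAD 6, 5xFAD 13, 5xFAD 15 and 5xFAD-Dp16 1. They are called high-thalamus libraries below, a class read from the data and not a group of the study. The 5xFAD group holds 3 of them, so 1 library (5xFAD 10) is left without them.

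Thy1 RNA was higher in every carrier than in every non-carrier. Levels are given as counts scaled to a common library size by TMM (CPM). The WT libraries 2, 4, 7 and 16 held 792, 742, 698 and 766 CPM. The Dp16 libraries 3, 5, 12 and 14 held 934, 872, 906 and 841 CPM. The 5xFAD libraries 6, 10, 13 and 15 held 1991, 2821, 1872 and 1354 CPM. All 4 Dp16 libraries lay above all 4 WT libraries, and the lowest carrier, 5xFAD 15, lay well above the highest Dp16 library. For neither separation is the share of all genes that divide the libraries in the same way given here. The 5xFAD-Dp16 libraries 1, 8, 9 and 11 held 2416, 2420, 2679 and 2585 CPM, a tight set inside the range of 5xFAD.

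**Figure D1:**
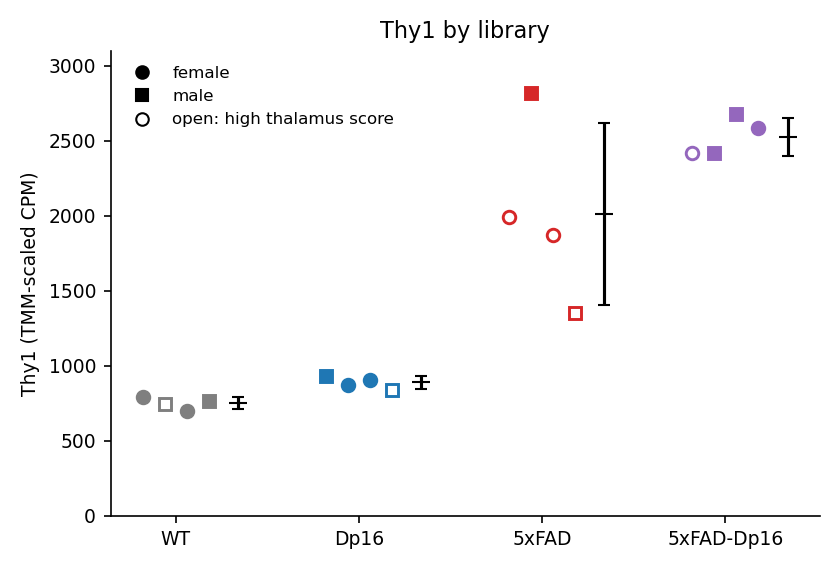
Thy1 level in each of the 16 libraries (vertical axis, TMM-scaled CPM) by genotype (horizontal axis); circles are females, squares are males, open symbols are high-thalamus libraries, and the bars give the mean ± SD of each group. The 8 carriers lie between 1354 and 2821 CPM and the 8 non-carriers between 698 and 934 CPM.

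The mean level was 749 ± 39.9 CPM for WT and 888 ± 40.7 CPM for Dp16 (SD, n = 4 each). It was 2010 ± 607 CPM for 5xFAD and 2525 ± 129 CPM for 5xFAD-Dp16. The spread differed between the groups. The SD of 5xFAD was 30.2% of its mean, while that of WT was 5.33%, that of Dp16 4.58% and that of 5xFAD-Dp16 5.12%. Length-scaled levels, which can be compared between genes, placed Thy1 at rank 62 to 69 by RPKM in the WT libraries and 52 to 58 in Dp16. In 5xFAD it stood at rank 14 to 27 and in 5xFAD-Dp16 at rank 14 to 16. The carriers exceeded the non-carriers by 790 RPKM, 1218 against 428. Among the genes tested, this was the third largest gain in RPKM, after the predicted non-coding gene Gm23935 with 2242 RPKM and Apoe, the apolipoprotein of astrocytes and plaque-associated microglia, with 942 RPKM.

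The transgenes were tested on both chromosome 16 backgrounds. Thy1 rose 2.68-fold in 5xFAD against WT (log2 fold change 1.42 ± 0.16, SE; 95% interval 1.07 to 1.77). The Benjamini-Hochberg adjusted p from edgeR's quasi-likelihood test was 2.12e-05, in a comparison in which 7.26% of the genes tested were called. On the duplication background, 5xFAD-Dp16 against Dp16, the rise was 2.84-fold (1.51 ± 0.16, edgeR adjusted p = 1.96e-05; 3.02% of genes called). Against WT the double carriers were 3.37-fold higher (1.75 ± 0.16, edgeR adjusted p = 4.4e-06; 3.2% of genes called). Over both backgrounds the carriers stood 2.76-fold above the non-carriers (1.46 ± 0.11, edgeR adjusted p = 1.63e-07; 8.6% of genes called). By p-value this placed Thy1 at rank 67 of the 17132 genes tested. Whether the labelled libraries came from separate animals rests on the design text, and the p-values measure the spread between these libraries.

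The rise was also measured inside each thalamus class. Among the 10 libraries with low thalamus scores, 4 carriers averaged 2626 ± 168 CPM and 6 non-carriers 828 ± 91.1 CPM (SD). The difference was 1.67 log2 units, with an exact two-sided permutation p of 0.00476. Among the 6 high-thalamus libraries, 4 carriers averaged 1908 ± 437 CPM and 2 non-carriers 791 ± 69.7 CPM. Here the difference was 1.24 log2 units and the exact permutation p 0.0667, the smallest that the 15 possible splits allow. Of these 4 carriers 3 were 5xFAD, while 5xFAD 10 was the only 5xFAD library of the low class. Class and genotype are thus mixed between the differences of 1.67 and 1.24, and the permutations did not take genotype into account.

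The duplication was tested with and without the transgenes. Dp16 exceeded WT by 139 CPM, a log2 fold change of 0.25 ± 0.16 (95% interval -0.10 to 0.59), which did not pass edgeR's test (adjusted p = 0.948; 0.228% of genes called). That fit shares one estimate of spread over all 4 groups. An exact permutation test of the log2 CPM of these 2 groups alone gave p = 0.0286, the smallest that 70 splits allow, and 0.0381 after adjustment over 4 comparisons. The pan-neuronal score of the same libraries, the mean log2 CPM of 17 genes found in nearly all neurons, was itself 0.15 log2 units higher in Dp16 (exact permutation p = 0.0286, adjusted 0.0571).

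Among carriers, 5xFAD-Dp16 had 515 CPM more Thy1 than 5xFAD. The log2 fold change was 0.33 ± 0.15 (95% interval -0.01 to 0.67), which did not pass edgeR's test (adjusted p = 0.26; 0.304% of genes called). Without library 5xFAD 10 it was 0.56 and passed (edgeR adjusted p = 0.0123). Without the high-thalamus libraries it was -0.12, a value that sets 3 libraries against 5xFAD 10 alone, the highest in Thy1 of all 16, with the spread taken from the other groups. The test of whether the transgene effect itself differed between the backgrounds gave 0.08 ± 0.22 (95% interval -0.40 to 0.57, edgeR adjusted p = 0.926). No gene at all was called in that interaction.

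No sex difference in Thy1 passed the test. Carrier females averaged 2216 ± 339 CPM and carrier males 2319 ± 664 CPM (SD, n = 4 each). Non-carrier females and males averaged 817 ± 92.9 and 821 ± 86.5 CPM. Females against males gave a log2 fold change of -0.04 ± 0.11 over all groups (95% interval -0.28 to 0.20, edgeR adjusted p = 0.978; 0.0642% of genes called). Within carriers it was -0.07 ± 0.16 (95% interval -0.43 to 0.29, edgeR adjusted p = 0.999; 0.0467% of genes called). The transgene effect in females minus that in males was -0.06 ± 0.23 (95% interval -0.57 to 0.44, edgeR adjusted p = 0.976). In 5xFAD both females and 1 of 2 males were high-thalamus libraries.

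Thy1 is a neuronal RNA, so its level was next set against neuronal RNA in the same library. Fewer neurons and less RNA per neuron cannot be told apart in whole tissue. Subtracting the pan-neuronal score from Thy1 on the log2 scale left 5xFAD 1.51 ± 0.33 above the WT mean, 5xFAD-Dp16 1.73 ± 0.08 and Dp16 0.10 ± 0.03, where WT itself had an SD of 0.03 (n = 4 each). Carriers and non-carriers again did not overlap. By exact permutation, 5xFAD against WT (difference 1.51) and 5xFAD-Dp16 against Dp16 (1.64) each gave p = 0.0286, or 0.0381 adjusted over the 4 comparisons. The remaining Dp16 difference of 0.10 log2 units against WT had the same p-values, and lost its call in 5 of the 8 tests that left out 1 library. In such tests 5xFAD against WT lost its call in 3 of 8 and 5xFAD-Dp16 against Dp16 in 2 of 8 (adjusted exact permutation p up to 0.0571). Their unadjusted p stayed at 0.0286, the smallest possible, so adjustment over the 4 comparisons decided these calls. 5xFAD-Dp16 against 5xFAD gave 0.22 with an exact permutation p of 0.257.

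Which neuronal list was subtracted mattered for the order of the carrier groups. The excitatory neuron list, which holds the vesicular glutamate transporter Slc17a7, Camk2a and glutamate receptor subunits, was 0.62 log2 units lower in 5xFAD than in WT (exact permutation p = 0.0571). Relative to it, Thy1 was 2.00 ± 0.24 above WT in 5xFAD and 1.83 ± 0.16 in 5xFAD-Dp16. Relative to the synaptic protein list the values were 1.78 ± 0.17 and 1.72 ± 0.03. The transgene differences then each kept an exact permutation p of 0.0286, the smallest possible, which became 0.0571 after adjustment. The Dp16 difference from WT, 0.17 and 0.16, did not pass with either list (exact permutation p = 0.4 and 0.143). The 5xFAD-Dp16 minus 5xFAD difference changed sign to -0.17 and -0.06, with exact permutation p-values of 0.314 and 0.514. The SD of Thy1 over the 5xFAD libraries was 0.43 log2 units before any subtraction.

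**Figure D2:**
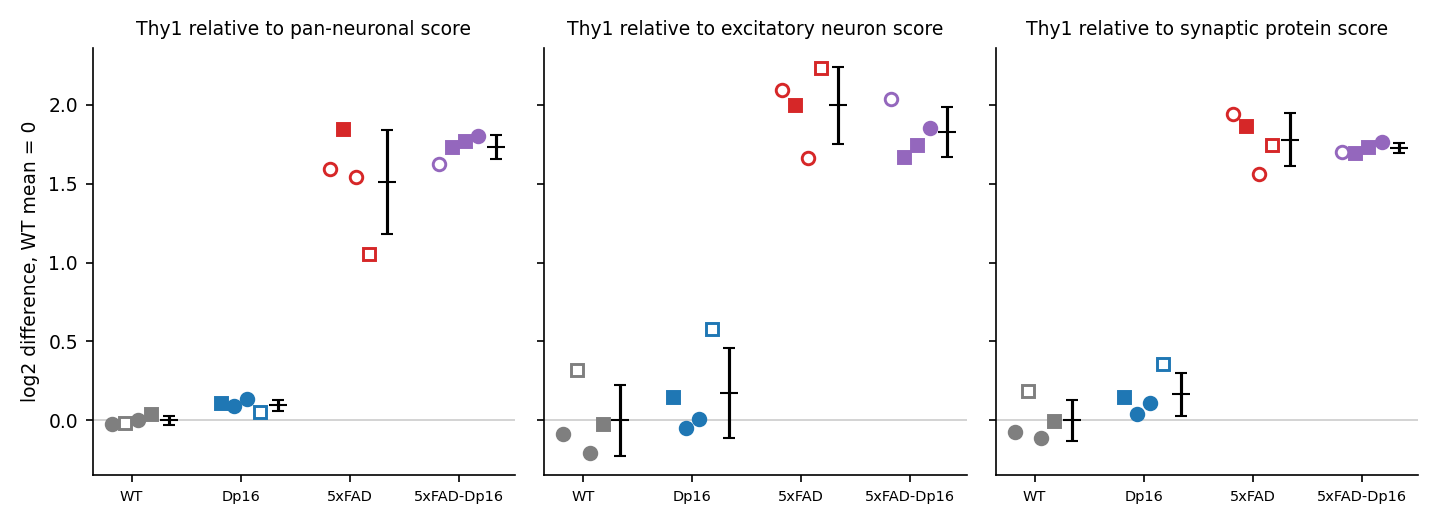
Thy1 log2 CPM minus the pan-neuronal, excitatory neuron or synaptic protein score (vertical axis, log2 difference with the WT mean at 0) in each library, by genotype; circles are females, squares are males, open symbols are high-thalamus libraries, and bars give the mean ± SD. The carriers lie above the non-carriers in each panel, and the spread of the 5xFAD libraries goes from 0.33 with the pan-neuronal score to 0.17 with the synaptic score.

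The mouse gene App, which encodes the amyloid precursor protein, is the counterpart of the human APP cDNA. It lies in the duplicated segment and rose in Dp16 against WT (log2 fold change 0.67 ± 0.08, edgeR adjusted p = 0.000856). Between carriers and non-carriers App differed by -0.16 ± 0.06 (edgeR adjusted p = 0.0921), which did not pass. The App difference passed with DESeq2 (-0.17, adjusted p = 4.73e-05) and without 5xFAD 10 (-0.17, edgeR adjusted p = 0.0351).

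The genes around Thy1 were tested in the same fit. GENCODE M21 places 17 genes within 100 kb of it, and 8 passed the filter. By edgeR's test 0 of these 8 were called between carriers and non-carriers, beside 8.6% of all genes, so few calls were to be expected among 8. By the same test 0 had an unadjusted p below 0.05, and DESeq2 called 0. The closest tested gene, the non-coding Gm39323, ends 2.3 kb before Thy1 on the other strand and differed by 0.50 ± 0.38 log2 units (edgeR adjusted p = 0.454). Usp2, a deubiquitinase gene 18.4 kb beyond Thy1 on its own strand, differed by -0.06 ± 0.10 (edgeR adjusted p = 0.773). Cbl, which encodes a ubiquitin ligase, was the closest to a call. In 5xFAD against WT it differed by -0.38 ± 0.13 (edgeR adjusted p = 0.0786), and DESeq2 called it lower (-0.40, adjusted p = 0.0376). Mcam, an adhesion molecule gene, differed by 0.41 ± 0.21 in 5xFAD against WT (edgeR adjusted p = 0.254). Between carriers and non-carriers Mcam differed by 0.31 ± 0.15 (edgeR adjusted p = 0.221) and Mfrp by 0.62 ± 1.05 (edgeR adjusted p = 0.767). With no filter on low counts, edgeR called Mcam (0.31 ± 0.094, adjusted p = 0.0133) and Mfrp (0.62 ± 0.0996, adjusted p = 2.95e-08) higher in carriers. The log2 fold changes were nearly the same in both fits, and the SEs were smaller without the filter. The remaining 4 were Rnf26, Mfrp, Gm26737 and Gm10687. These 4, Usp2 and Mcam overlap annotated genes on the opposite strand, and the strand setting of the counting is not stated, so their counts are uncertain.

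**Figure D3:**
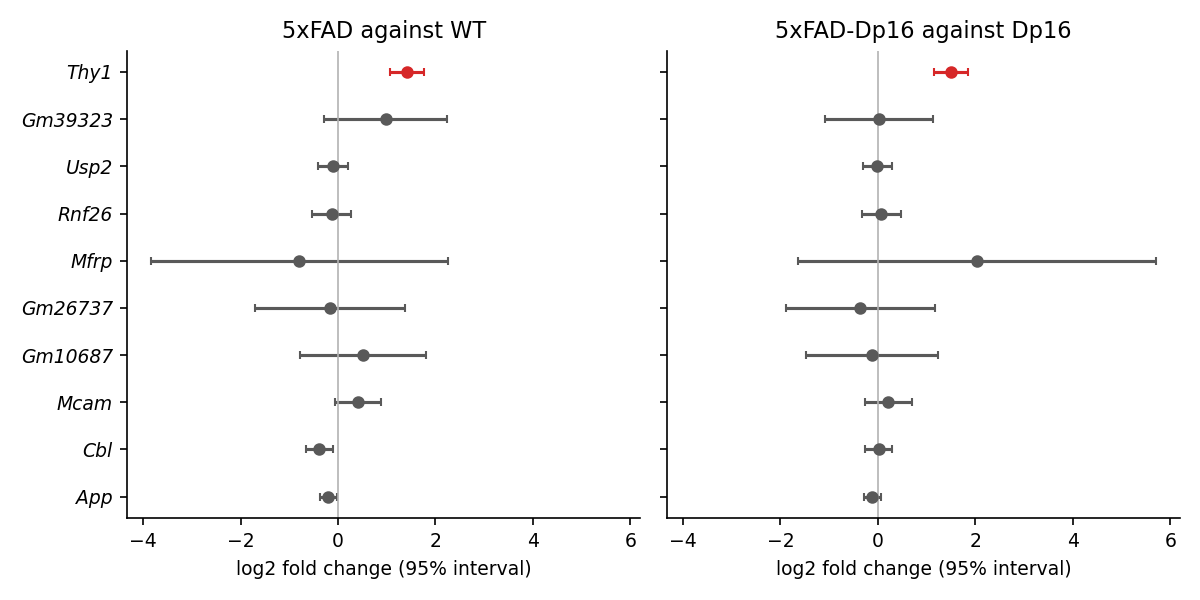
Log2 fold change with its 95% interval (horizontal axis) of Thy1, the 8 tested genes within 100 kb of it in order of position, and App, in 5xFAD against WT (left) and 5xFAD-Dp16 against Dp16 (right). Thy1 stands at 1.42 and 1.51, and no neighbour was called by edgeR's test in either comparison, beside 7.26% and 3.02% of all genes.

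Other carriers of Thy1 were measured through their markers. The summed level of 14 T cell genes was 3.33 to 4.47 CPM in WT and 2.89 to 5.42 in Dp16. It was 6.15 to 8.34 CPM in 5xFAD and 5.84 to 8.74 in 5xFAD-Dp16. Every carrier lay above every non-carrier in this sum, and the share of all genes that separate the libraries this way is not given here. Of the 14 genes 6 passed the filter. In 5xFAD against WT 5 of these 6 had a positive log2 fold change and edgeR called 1 higher (5.31% of genes called higher). The T cell receptor subunit gene Cd3e averaged 0.554 CPM in 5xFAD and 0.0358 in WT, and Cd3d was at 0 in all 4 Dp16 libraries. Cd4 of the same list averaged 0.515 CPM in 5xFAD and 0.733 in WT. The 11 meningeal fibroblast genes summed to 113 to 282 CPM in WT, 126 to 155 in Dp16, 192 to 270 in 5xFAD and 97.4 to 344 in 5xFAD-Dp16. The 5xFAD sums lay above those of Dp16 and within the range of WT. In 5xFAD against WT 9 of the 11 had a positive log2 fold change, with a median of 0.50 against 0.03 over all genes, and edgeR called 0 of them. The part of either cell type in the Thy1 difference was not tested.

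The genes that Thy1 protein meets on other cells were described from a list of 15 binding partners and signalling genes, all tested. In 5xFAD against WT 7 rose and 0 fell, with a median log2 fold change of 0.43 against 0.03 over all genes (5.31% of genes were called higher and 1.96% lower). By edgeR 1 of the 15 had an unadjusted p below 0.05 in the lower direction, Src, and DESeq2 called 0 lower. Without 5xFAD 10, edgeR called 1 of the 15 lower, beside 10.7% of all genes. In 5xFAD-Dp16 against Dp16 6 rose and 0 fell (2.99% of genes called higher, 0.035% lower; by edgeR and by DESeq2 alike 0 were called lower, and 0 had an unadjusted p below 0.05 in that direction), and in carriers against non-carriers 9 (6.61%).

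The partners that rose with the smallest p-values were integrin subunits. Itgb2, the shared chain of leukocyte integrins, went from 8.33 ± 0.97 CPM in WT to 31.3 ± 6.94 in 5xFAD (log2 fold change 1.89 ± 0.12, edgeR adjusted p = 1.35e-07). Itgax, its partner chain in plaque-associated microglia, went from 0.44 ± 0.152 to 30.7 ± 12.2 CPM (6.05 ± 0.39, edgeR adjusted p = 2.53e-07). Itgam, its partner chain in microglia and myeloid cells at large, rose by 1.17 ± 0.14 (edgeR adjusted p = 4.44e-05). Itgb3, a chain of the vitronectin receptor through which Thy1 is known to contact astrocytes, rose from 2.85 ± 0.38 to 6.64 ± 1.43 CPM (1.21 ± 0.18, edgeR adjusted p = 0.000343). Its partner chain Itgav differed by 0.01 ± 0.09 and the Src-family kinase Fyn by -0.05 ± 0.09. Itgax also belongs to the list of plaque-associated microglia genes, of which 27 of 29 tested rose in the same comparison. How much of the integrin rise went with the number of microglia was not tested.

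Genes of other neuronal proteins with Thy1's kind of membrane anchor were described next. Of 18 GPI-anchored neuronal surface protein genes, edgeR called 0 in 5xFAD against WT, beside 7.26% of all genes (5.31% higher). By edgeR 4 had an unadjusted p below 0.05, all lower, and DESeq2 called 4 lower. Their median log2 fold change was -0.12. The smallest p-values belonged to the adhesion molecules Cntn1 (457 ± 23.9 CPM in WT, 384 ± 32.0 in 5xFAD; -0.25 ± 0.08, edgeR adjusted p = 0.0714) and Opcml (238 ± 28.5 and 167 ± 46.7 CPM; -0.52 ± 0.17, edgeR adjusted p = 0.0729). In this comparison DESeq2 called 5.99% of all genes lower. Without 5xFAD 10 edgeR called 6 of the 18 lower, beside 10.7% of all genes, and without 5xFAD 13 it called 1, beside 3.06%. In carriers against non-carriers edgeR called 1 lower (1.98% of genes called lower), the nicotinic receptor modulator Lynx1 (-0.20 ± 0.05, edgeR adjusted p = 0.0289). DESeq2 called 6 of the 18 lower, beside 6.13% of all genes.

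**Figure D4:**
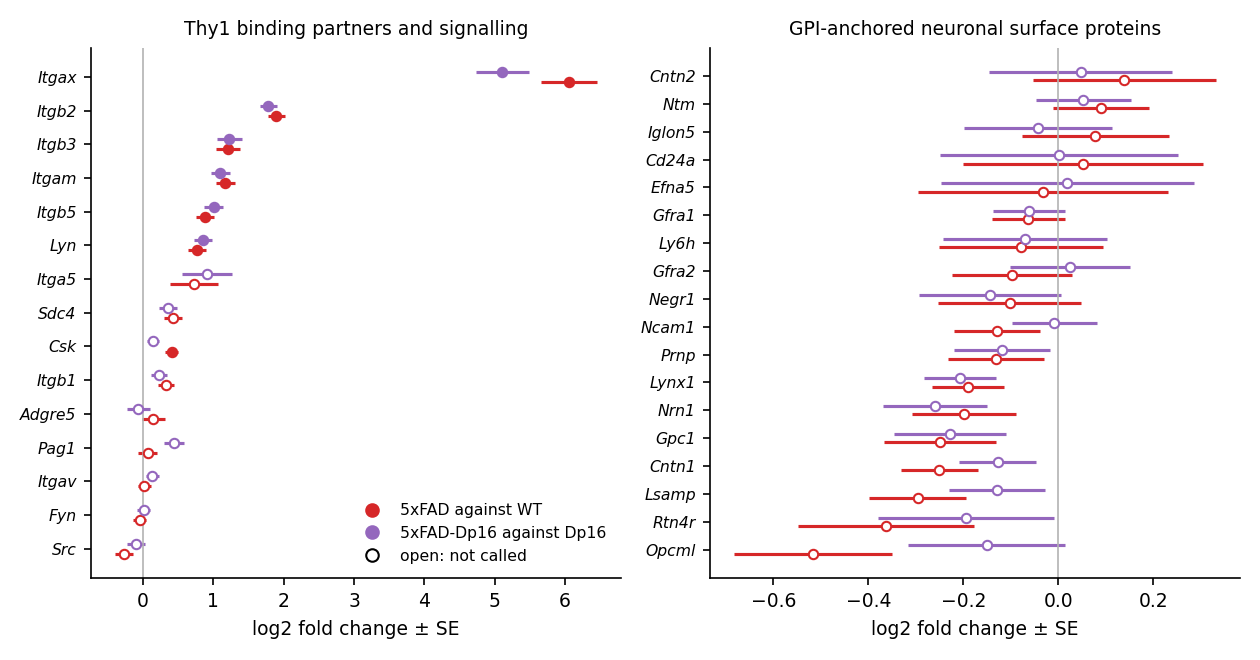
Log2 fold change ± SE (horizontal axis) of the 15 Thy1 binding partner and signalling genes (left) and the 18 GPI-anchored neuronal surface protein genes (right), in 5xFAD against WT (red) and 5xFAD-Dp16 against Dp16 (purple); filled points were called by edgeR and open points were not. On the left 7 and 6 genes were called higher, with Itgax at 6.05 and 5.11, and on the right none was called. Of all genes 7.26% and 3.02% were called in these comparisons.

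Over the 8 carriers Thy1 log2 CPM was then related to 34 measures: 22 list scores and 12 genes. The p-values come from exact permutation over all pairings and are adjusted over the 34. After adjustment 8 measures passed, and 11 had an unadjusted p below 0.05. The synaptic protein score had the highest Pearson r, 0.95 (exact permutation p = 0.00295, adjusted 0.0269; Spearman's rho 0.95, exact permutation p = 0.00114). The excitatory neuron score gave r = 0.92 (rho 0.76) and the CA1 and CA3 pyramidal cell score r = 0.87 (rho 0.81). The pan-neuronal score gave r = 0.86 (rho 0.90) and the score of the GPI-anchored proteins r = 0.84 (rho 0.71). Among genes, Rbfox3, the NeuN antigen of neuronal nuclei, gave r = 0.91 (rho 0.95) and Syt1, the calcium sensor of synaptic vesicles, r = 0.93 (rho 0.67). The mature oligodendrocyte score ran the other way, r = -0.88 (rho -0.95). Each of these had an adjusted exact permutation p of 0.0269, except the GPI-anchored proteins with 0.04. The call of the GPI-anchored proteins was lost whichever carrier was left out (adjusted exact permutation p = 0.057 to 0.13).

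In the 8 carriers the 4 high-thalamus libraries held 1354 to 2416 CPM of Thy1 and the 4 others 2420 to 2821 CPM. The 3 lowest were all 5xFAD libraries, and the high-thalamus library 5xFAD-Dp16 1 lay just below the lowest of the other class. As the thalamus score falls into separate clusters, no pooled r is given for it, and each class holds only 4 carriers. With each library taken as its deviation from the mean of its thalamus class, the r of the synaptic score was 0.89, of the excitatory score 0.83 and of the pan-neuronal score 0.73. With deviations from the genotype means they were 0.92, 0.88 and 0.78. In both cases 0 of the 34 measures passed adjustment, with permutation within classes or genotypes, and 1 and 2 had an unadjusted p below 0.05. Without the 2 libraries farthest from the median Thy1 level, 5xFAD 15 and 5xFAD 13, the synaptic score kept r = 0.92 and Rbfox3 0.97. Of the 34 measures, the number that passed fell to 0 without 5xFAD 10 or 5xFAD-Dp16 9, to 1 without 5xFAD 15 and to 3 without 5xFAD 6. In the 8 non-carriers the synaptic score gave r = 0.51 and the pan-neuronal score 0.95.

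Markers of dentate granule cells, the other main projection neurons of the hippocampus, had r = 0.07 with Thy1 (adjusted exact permutation p = 0.94). With deviations from the genotype means their r was 0.61 and with deviations from the thalamus class means -0.03, and neither passed adjustment. Snap25, a synaptic membrane fusion protein gene, gave r = 0.17 (adjusted exact permutation p = 0.828) although it belongs to the pan-neuronal list.

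No plaque-response measure passed. Over 13 such measures, 6 lists and 7 genes, r ran from -0.65 to 0.53 with adjusted exact permutation p-values from 0.213 to 0.966. The plaque-associated microglia score gave r = 0.02 (rho -0.19, exact permutation p = 0.966), and 0.02 also in the 8 non-carriers. Cst7, a cystatin gene of plaque-associated microglia, was at 130, 95.9, 83.0 and 34.6 CPM in 5xFAD 6, 10, 13 and 15. It was at 68.2, 49.0, 56.3 and 59.6 CPM in 5xFAD-Dp16 1, 8, 9 and 11. The carrier with the least Thy1, 5xFAD 15, thus also had the least Cst7, while the next lowest carriers in Thy1 stood among the highest in Cst7 (r = 0.32). With deviations from the genotype means r was 0.48 for the microglia score, 0.60 for homeostatic microglia, 0.71 for Cst7 and 0.72 for the integrin gene Itgax, against 0.02, 0.22, 0.32 and 0.27 without centring, and none of these passed adjustment. Trem2, the lipid receptor gene of microglia, gave r = -0.02, and Gfap, the intermediate filament gene of reactive astrocytes, r = 0.06.

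Library 5xFAD 15 set several of these values. Without it and 5xFAD 13 the microglia score gave r = -0.60, Gfap -0.86 and the reactive astrocyte score, at -0.09 over all 8, gave -0.90 (n = 6). Without 5xFAD 15 alone the reactive astrocyte score gave r = -0.94 and was then the 1 measure that passed (adjusted exact permutation p = 0.0405). Without 5xFAD 13 alone its r was 0.126 (adjusted exact permutation p = 0.845). With deviations from the thalamus class means the sign was positive, 0.42 for the astrocyte score and 0.58 for the microglia score.

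**Figure D5:**
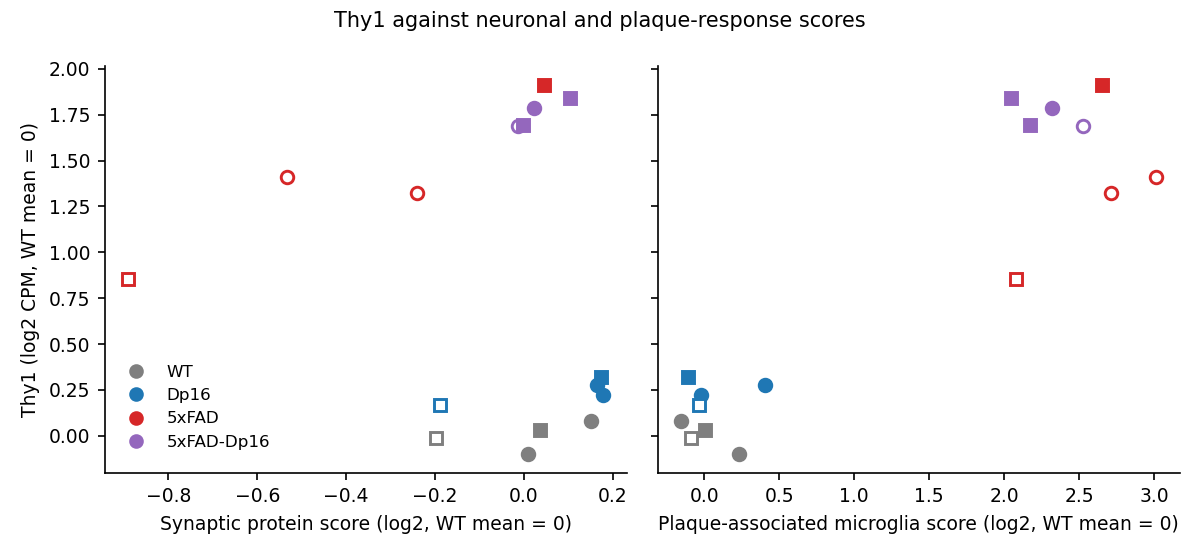
Thy1 level (vertical axis, log2 CPM with the WT mean at 0) against the synaptic protein score (left) and the plaque-associated microglia score (right; horizontal axes, mean log2 CPM of the list with the WT mean at 0) in the 16 libraries; circles are females, squares are males, open symbols are high-thalamus libraries. Over the 8 carriers r was 0.95 on the left and 0.02 on the right, and library 5xFAD 15 is the lowest carrier in both panels.

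The genes whose log2 CPM ran most like that of Thy1 over the 8 carriers are given as a description, without a test, since they were the extremes of all genes. They were Cort (r = 0.993), Pde1a (0.988), Rap2a (0.982), Capn5 (0.98), Map2 (0.979), Camkv (0.979), Fezf2 (0.979), Ctxn1 (0.979), Syn2 (0.978) and Ncs1 (0.978). Several are neuronal by textbook knowledge: Cort encodes the interneuron peptide cortistatin, Map2 a microtubule protein of dendrites, Syn2 a synaptic vesicle protein and Ncs1 a neuronal calcium sensor. Cort was low, at 1.34 to 7.58 CPM, while Map2 was at 764 to 1361 CPM. The most opposed genes were Id1 (r = -0.973), Wdfy1 (-0.971), Sncg (-0.967), Smad5 (-0.967) and Ndufaf4 (-0.967). Over all 16 libraries, as deviations from the genotype means, the most alike were Pde1a (0.939), Pdzd4 (0.928), Cort (0.92), Cfl1 (0.919), Cyp46a1 (0.912), Vegfd (0.911), Ddah1 (0.91), Kcnf1 (0.909), Zfp580 (0.908) and Lhx2 (0.908). The phosphodiesterase gene Pde1a and Cort were the 2 genes in both sets of 10. The libraries differed in thalamus class, and this difference was not removed in either ranking.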

How the data were processed

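The 16 libraries were polyA-selected and strand-specific, per the labels' protocols. The authors deposited raw counts per gene and RPKM values, which equal the count divided by its column total and by a length per gene. GRCm38, HISAT2 2.1.0, SAMtools 1.5 and HTSeq 0.6.1 are named in the submitters' processing notes, without their settings. How reads that map to several places were counted is not given in the sources used here.

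Counts were tested with edgeR 4.0.16 in R 4.3.3 (filterByExpr with a minimum count of 10, TMM scaling, robust quasi-likelihood fit on all 16 libraries with genotype and sex as terms). Genes with a Benjamini-Hochberg adjusted p below 0.05 were called. Sex within carriers came from a fit with a sex by carrier term. Intervals use 11 residual degrees of freedom (10 with that term). On simulated counts of 16819 genes, carriers against non-carriers, the fit recovered 99% of genes changed by 1.5 log2 units and 80% of those changed by 0.8, with 9 false calls. Scores are means of log2 CPM (prior count 2). Permutation tests and correlations used SciPy 1.17.1. Alternatives were DESeq2 1.42.0, RLE scaling, no filter, no sex term, limma 3.58.1 on log2(RPKM + 0.1), tissue covariates and left-out libraries.

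Thy1 and the gene lists were chosen with earlier results of these data known. Named genes followed a fixed rule: Thy1; App; 7 plaque-response and 3 neuronal genes; tested neighbours within 100 kb; the 10 most alike and 5 most opposed genes by Pearson r among named genes with mean log2 CPM of 0 or more; and up to 4 called partner or GPI-anchored genes of smallest p, or 2 where none was called. Itgav, Fyn, Src, Lynx1, Cd3e, Cd3d and Cd4 were named after their values were seen. A further gene of the rule is not reported here.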

Additional observations from a re-analysis of the deposited data

Results flagged for a closer look

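Each of 56 sets of 4 libraries of 1 genotype was examined for a value set far apart from the other 3, which chance gives in about 1 of 20 sets. Thy1 gave no such value in any genotype, and 4 sets of other genes did. Cst7 and Clec7a, both genes of plaque-associated microglia, were at 2.09 and 2.72 CPM in Dp16 12, a mouse without the transgenes, far above the other Dp16 libraries. Thy1 in that library was 906 CPM, inside the Dp16 range. Clec7a was at 43.7 CPM in 5xFAD 6, apart from the other 5xFAD libraries at 21.1 to 23.8 CPM. Rbfox3 was at 254 CPM in Dp16 14, the high-thalamus library of that genotype, below the other 3.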

How the results depend on the processing

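The rise of Thy1 with the transgenes kept its direction and its call in 5xFAD against WT, 5xFAD-Dp16 against Dp16, 5xFAD-Dp16 against WT and carriers against non-carriers under every alternative run. Leaving out 1 library gave ranges of 1.19 to 1.58, 1.48 to 1.54, 1.73 to 1.79 and 1.35 to 1.54. No paired analysis was possible because the numbers in the titles are unique to each library. Where a value below is given for an alternative that changed a call or a sign, the cause was not tested.

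The smaller Thy1 differences did not hold their sign. With the pan-neuronal score as a covariate, Dp16 against WT was -0.063, females against males 0.056, that difference in carriers 0.099 and the transgene effect in females against males 0.080. With the thalamus score as a covariate the last 2 were 0.11 and 0.29, and limma on log2 RPKM put the last at 0.059. Without the high-thalamus libraries 5xFAD-Dp16 against 5xFAD was -0.12, the interaction -0.38 (both rest on 5xFAD 10 as the lone 5xFAD library, assumed to vary like the other groups), and the 2 sex terms 0.021 and 0.084. Leaving out 1 library gave 0.18 to 0.56 for 5xFAD-Dp16 against 5xFAD, -0.067 to 0.31 for the interaction, -0.12 to 0.077 for females against males, -0.24 to 0.18 for that difference in carriers and -0.23 to 0.19 for the transgene effect by sex.

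Relative to neuronal RNA, 4 differences were recomputed: 5xFAD from WT, 5xFAD-Dp16 from 5xFAD, Dp16 from WT, and 5xFAD-Dp16 from Dp16. In that order the excitatory list gave 2.00, -0.17, 0.17 and 1.65, and the synaptic list 1.78, -0.055, 0.16 and 1.56. With these 2 lists no difference passed adjustment, Dp16 from WT included. The transgene differences still had the smallest exact permutation p that the splits allow, so adjustment over the 4 decided their call. Leaving out 1 library gave 1.398 to 1.66, 0.072 to 0.33, 0.083 to 0.11 and 1.62 to 1.67. The smallest exact permutation p for 4 against 3 libraries is again 0.0286. Of 8 such tests each, the call was lost in 3 for 5xFAD from WT, 5 for Dp16 from WT and 2 for 5xFAD-Dp16 from Dp16. Where a transgene difference lost its call, its adjusted exact permutation p was 0.0571 and that of Dp16 from WT 0.0762. The transgene differences kept the smallest unadjusted p, so adjustment over the 4 decided their call. Without 5xFAD 10, 5xFAD-Dp16 from 5xFAD passed (0.33, adjusted exact permutation p = 0.0286).

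Between carriers and non-carriers the signs of weakly expressed or unchanged neighbours moved. With the pan-neuronal covariate Usp2 was 0.068, Rnf26 0.069, Mfrp -3.14 and Gm10687 -0.84. Without the high-thalamus libraries they were 0.059, 0.17, -1.66 and -0.22. limma on log2 RPKM gave Rnf26 0.013 and Mfrp -0.29, and the thalamus covariate Gm10687 -0.019. Leaving out 1 library gave -0.13 to 0.0025 for Usp2, -0.096 to 0.030 for Rnf26, -0.92 to 1.29 for Mfrp and -0.22 to 0.47 for Gm10687. With no filter on low counts Mfrp (0.62, adjusted p = 2.95e-08) and Mcam (0.31, adjusted p = 0.0133) were called by edgeR. Their SEs were then 0.0996 and 0.094, against 1.05 and 0.15 in the main fit.

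All 34 measures were recomputed against Thy1 in the carriers. The number that passed went from 8 to 0 with deviations from genotype means, to 0 with log2 RPKM and to 0 with deviations from thalamus class means (chosen after seeing the data). Leaving out 1 library gave 0 to 8, not always the same measures: without 5xFAD-Dp16 1 the thalamus score passed and the GPI-anchored proteins did not, and without 5xFAD 15 only reactive astrocytes passed. Signs turned with deviations from genotype means for complement (0.014), reactive astrocytes (0.044), astrocytes (0.11), T cells (-0.047), Trem2 (0.54) and Apoe (0.17). They turned with Thy1 minus the pan-neuronal score for reactive astrocytes (0.11) and Trem2 (0.13). With log2 RPKM they turned for plaque-associated microglia (-0.14), dentate granule cells (-0.20), Thy1 partners (-0.23), Gfap (-0.15) and Snap25 (-0.31). With deviations from thalamus class means they turned for complement (0.58), reactive astrocytes (0.42), interferon response (0.063), dentate granule cells (-0.026), cortical layers (0.21), astrocytes (0.52), endothelial cells (0.53), meningeal fibroblasts (0.35), Trem2 (0.42), Clec7a (0.27), Apoe (0.31) and Snap25 (-0.070), and the thalamus score gave 0.047. Leaving out 1 library gave r from -0.62 to 0.20 for plaque-associated microglia, -0.63 to 0.43 for homeostatic microglia, -0.94 to 0.13 for reactive astrocytes, -0.36 to 0.28 for dentate granule cells, -0.32 to 0.13 for cortical layers and -0.73 to 0.48 for Thy1 partners. For genes it gave -0.46 to 0.59 for Cst7, -0.39 to 0.41 for Itgax, -0.53 to 0.17 for Trem2, -0.20 to 0.79 for C4b, -0.87 to 0.27 for Gfap and -0.18 to 0.54 for Snap25. With 8 carriers, and 4 in each thalamus class, weaker relations could not be resolved.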
